A study of Homo sapiens with 6 samples.

Results

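The genes described here are steroid sulfatase (STS), 6 further sulfatases (ARSA, ARSB, ARSD, IDS, GALNS and SGSH) and the sulfatase modifying factors SUMF1 and SUMF2, read from RNA-seq of OVCAR5 and OVCAR5R cells. The 9 members were found by symbol among 12308 different rows of the deposited table, and all 9 passed the filter that left 11766 genes for testing. STS was selected on the comparison of OVCAR5R with OVCAR5, in which it was lower, so its values are given as a description with no test. The other 8 genes were chosen because they belong to the same enzyme family.

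Sulfatases remove sulfate groups from steroids, lipids and sugar chains. Each of them becomes active only when a cysteine in its active site is converted to formylglycine in the endoplasmic reticulum, a step carried out by the product of SUMF1, while the related SUMF2 product can bind the same enzymes and dampen the conversion. STS sits in the membrane of the endoplasmic reticulum and releases estrone and dehydroepiandrosterone from their circulating sulfates, whereas most of the other members work in the lysosome, and loss of each of those causes an inherited storage disease.

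OVCAR5 is a cell line from an ovarian cancer, which the paper describes as wild-type for BRCA and as p53 null. OVCAR5R is a line derived from it by growth in rising concentrations of prexasertib (Prex), an inhibitor of the checkpoint kinase CHK1, up to 3 µM, and kept at 2 µM, with at least 4 days off the drug before use. Each cell line had 3 cultures, and the labels name the line and its resistance but no further allele or treatment. OVCAR5R is 1 resistant line, so its history in the drug, its time in culture and the resistance itself cannot be told apart. The p-values below measure the spread between cultures of these 2 lines.

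The values are the authors' normalized values on a linear scale, with the labels giving the genome build as hg38. From the steps between low values, the estimated reads per library, in units of 1e6, were 35.8 to 41.3 in OVCAR5 and 50.3 to 55.1 in OVCAR5R. OVCAR5 replicate 2 stood apart. On the log2 scale it correlated with the other OVCAR5 libraries at 0.883 and 0.898, against 0.955 between those 2, and its epithelial markers summed to 16878 against 2266 to 4726 in the other 5 libraries. EPCAM was 597 in that library and 11.9 to 31.7 elsewhere, and KRT19 was 1341 against 3.09 to 10.7. The marker lists for the labelled tissue and for other cells were read in the same way. Of 11 epithelial and ovarian markers 9 were listed, with CDH1 and MUC16 not listed, PAX8 at 4.38 to 11.4 and WT1 under 1 in every library. Endothelial markers were not listed (0 of 4), and the listed fibroblast (2 of 7), leukocyte (1 of 6) and keratinocyte and placenta (1 of 7) markers summed to 1.77 to 15.3, 2.02 to 20.2 and 10.3 to 19.7. Each of these sums was also highest in OVCAR5 replicate 2, against at most 9.99, 11.9 and 18.8 in the other libraries. They rest on COL1A1 and PDGFRB, on CD14 alone and on KRT10 alone. PDGFRB was lowest in OVCAR5 replicate 2, at 0.145 against 0.481 to 1.90, and so was WT1, at 0.029. The epithelial sum of that library was mostly KRT8 at 7772 and KRT18 at 6196. Where leaving out that library turned the log2 difference of a named gene or the median of a list, or moved it by over 1.5 times, the value without it is given.

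STS lies on the short arm of the X chromosome at chrX:7219456-7354810 on the plus strand (GENCODE release 29, GRCh38). RefSeq on GRCh38.p14 gives it 5 start sites, and the deposited values are per gene, so they do not say which start was used. The 250 bases before 2 of these starts are shown because STS is the member on which the lines differ most. The first belongs to the start with the most CpG dinucleotides, and the second to the start where GENCODE places the gene. Capitals mark CpG.
STS, chrX:7147462-7147711, plus strand: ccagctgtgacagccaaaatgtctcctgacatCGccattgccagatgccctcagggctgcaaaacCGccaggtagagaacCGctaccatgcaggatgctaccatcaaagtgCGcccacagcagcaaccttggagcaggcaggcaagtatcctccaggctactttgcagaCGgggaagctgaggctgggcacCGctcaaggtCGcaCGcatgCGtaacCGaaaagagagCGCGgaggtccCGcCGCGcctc
STS, chrX:7219206-7219455, plus strand: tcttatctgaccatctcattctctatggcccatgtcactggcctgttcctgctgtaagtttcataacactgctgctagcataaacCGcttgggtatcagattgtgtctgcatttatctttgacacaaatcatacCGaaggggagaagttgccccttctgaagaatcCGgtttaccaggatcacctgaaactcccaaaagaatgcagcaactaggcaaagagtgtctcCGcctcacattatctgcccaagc
The first window has 15 CpG dinucleotides and a GC content of 60.4%, and the second has 4 and 46.4%, beside a median GC content of 58% over the 35116 windows of the same length in the RefSeq table.

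Of the 9 members, 6 had such windows in that table (STS, ARSB, IDS, GALNS, SUMF1 and SUMF2), 11 windows in all. The E-box CACGTG, the core of the sites bound by TFEB, TFE3 and other lysosomal and metabolic regulators, was searched together with the GC box GGGCGG and the TATA box TATAAA, each on both strands. The E-box was in 3 of the 11 windows, 1 each of ARSB, GALNS and SUMF1, and in 0 of the 5 windows of STS, while 6.34% of all windows held it. Its 4 occurrences are given with their flanks, from the strand of the gene and with the motif in capitals, because they are the E-boxes found among the members. IDS, also lysosomal, had 0 in its window, ARSB had it in 1 of 2 windows, and ARSA, ARSD and SGSH had no window in the table.
ARSB, chr5:78986102-78986129, minus strand: aattcaataagCACGTGactaaaggatt
GALNS, chr16:88857105-88857132, minus strand: aggcaccgcgtCACGTGacccgccgctg
GALNS, chr16:88856963-88856990, minus strand: gccccgcgagtCACGTGgccgtccaggc
SUMF1, chr3:4467270-4467293, minus strand: gagggctcagcCACGTGaccaacc
The ARSB motif lay 160 bases before the start, the GALNS motifs 174 and 32 bases, and the SUMF1 motif 13 bases. The GC box was in 4 of the 11 windows (42.6% of all windows held it) and the TATA box in 1, of STS (10.7% of all windows), and no STS window had a GC box. A match is a string of letters and no evidence of binding.

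STS was the member that separated the cell lines. In the order of the replicate numbers, used throughout, its normalized value was 281, 265 and 159 in the OVCAR5 libraries and 32.0, 12.1 and 22.3 in the OVCAR5R libraries. The lowest OVCAR5 library was thus well above the highest OVCAR5R library, and OVCAR5 replicate 2 lay between the other 2 cultures of its line. OVCAR5 had a mean of 235 ± 66.0 and OVCAR5R a mean of 22.1 ± 9.98 (SD over n = 3 libraries), a 10.6-fold difference of the means and a log2 difference of -3.41 on the log2(value + 1) scale. Without OVCAR5 replicate 2 the log2 difference was -3.30. The estimated reads behind these values were 11517, 9156 and 6288 in OVCAR5 and 1698, 666 and 1199 in OVCAR5R, so STS transcripts were still counted in every OVCAR5R culture. The lower level in bulk RNA cannot tell fewer cells with STS from less STS RNA per cell. STS was the lowest of 354 tested genes of the X chromosome, followed by CFP, which encodes the complement factor properdin, at -1.75, and was 13th from the bottom among all 11766 genes. Libraries of the 2 lines did not overlap for 16.6% of all genes tested, with 8.18% lower and 8.4% higher in OVCAR5R. An exact permutation test of 1 gene with 3 libraries against 3 cannot give a p under 0.1.

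**Figure D1:**
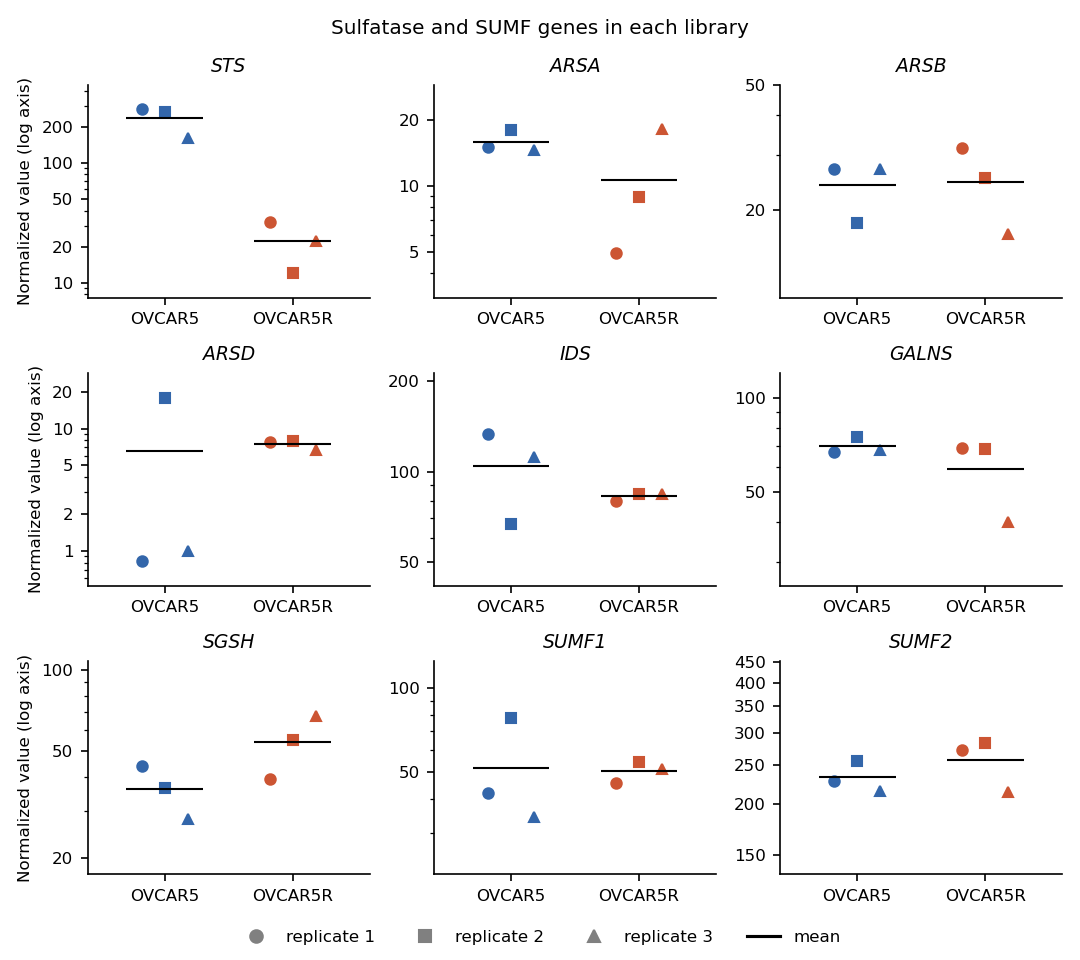
Normalized values of the 9 genes (log axis, 1 panel per gene) in the 3 OVCAR5 and 3 OVCAR5R libraries, with symbols for the replicate number and a black line for the mean. STS lies at 159 to 281 in OVCAR5 and 12.1 to 32.0 in OVCAR5R, while the libraries overlap for the other 8 genes.

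None of the other 8 members was called (0 of 8, with 0.119% of all 11766 genes called at an adjusted p under 0.05 by limma), and 0 of 8 had an unadjusted p under 0.05, which 10.4% of all genes had. The libraries of the 2 lines overlapped for all 8. Their log2 differences ran from -0.69 to 1.03 with a median of 0.03 (0.01 without OVCAR5 replicate 2), 5 above 0 and 3 below, beside a median of -0.01 over all genes. Adjusted p-values from limma were 0.516 to 0.997. The 95% intervals still leave room for changes of more than 2-fold in ARSA, ARSD and SGSH, so they do not show that these genes were equal in the 2 lines.

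Among the lysosomal sulfatases, ARSA (arylsulfatase A, which removes sulfate from the myelin lipid sulfatide) lies at chr22:50622754-50628173. It was 15.0, 17.9 and 14.5 in OVCAR5 and 4.96, 8.89 and 18.1 in OVCAR5R. The OVCAR5 cultures were close together, whereas OVCAR5R replicate 3 was slightly above all of them and OVCAR5R replicates 1 and 2 were below. The log2 difference was -0.69 (95% interval -1.62 to 0.25, adjusted p = 0.593), and it was -0.29 without OVCAR5R replicate 1 and -1.12 without OVCAR5R replicate 3.

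ARSB (arylsulfatase B, which acts on dermatan and chondroitin sulfate) lies at chr5:78777209-78986087. It was 26.9, 18.1 and 27.0 in OVCAR5 and 31.4, 25.3 and 16.8 in OVCAR5R. The highest and the lowest of the 6 libraries were both from OVCAR5R. Its log2 difference was 0.01 (95% interval -0.66 to 0.68, adjusted p = 0.997), and its sign changed with the library left out, from -0.19 without OVCAR5R replicate 1 to 0.25 without OVCAR5R replicate 3, with -0.18 without OVCAR5 replicate 2.

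GALNS (which removes sulfate from keratan sulfate and chondroitin sulfate) lies at chr16:88813734-88856970. It was 66.9, 75.2 and 68.0 in OVCAR5 and 69.2, 68.7 and 40.1 in OVCAR5R. Only OVCAR5R replicate 3 fell outside the narrow range of the other 5 libraries. Its log2 difference was -0.28 (95% interval -0.86 to 0.31, adjusted p = 0.741) and -0.02 without OVCAR5R replicate 3.

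IDS (iduronate sulfatase, for heparan and dermatan sulfate) lies on the long arm of the X chromosome at chrX:149476990-149521096. It was 133, 66.7 and 112 in OVCAR5 and 79.6, 84.6 and 84.3 in OVCAR5R. The OVCAR5R cultures differed by a coefficient of variation of 3.4%, and OVCAR5 replicate 2 was below all of them while the other 2 OVCAR5 cultures were above. The log2 difference was -0.27 (95% interval -0.89 to 0.36, adjusted p = 0.767), and without OVCAR5 replicate 2 it was -0.56 (95% interval -1.0 to -0.11, adjusted p = 0.366). Without OVCAR5 replicate 1 it was -0.06.

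SGSH (sulfamidase, for the N-linked sulfate of heparan sulfate) lies at chr17:80206716-80220923. It was 43.9, 36.4 and 28.0 in OVCAR5 and 39.4, 55.0 and 67.5 in OVCAR5R. OVCAR5R replicates 2 and 3 were above every OVCAR5 culture, and replicate 1 was within their range. This gave a log2 difference of 0.56 (95% interval -0.07 to 1.18, adjusted p = 0.516).

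ARSD, arylsulfatase D, lies at chrX:2903970-2929351, 4.29 Mb from STS toward the end of the short arm, and its natural substrate is not established. It was 0.828, 17.9 and 0.988 in OVCAR5 and 7.69, 7.89 and 6.63 in OVCAR5R. OVCAR5 replicate 2 was 19.7 times the mean of the other 2 OVCAR5 cultures and above every OVCAR5R culture, and the estimated reads behind the values were 34, 617.5 and 39 against 408, 436 and 356. The log2 difference was 1.03 over all 6 libraries (95% interval -0.86 to 2.92, adjusted p = 0.688) and 2.14 without OVCAR5 replicate 2 (95% interval 1.46 to 2.81, adjusted p = 0.0489 by limma), where ARSD was higher in 3 of 3 OVCAR5R libraries. Without that library only the OVCAR5R values of ARSD reached 1, so it stayed among the tested genes through the higher line alone. In that setting 29 of all 11766 genes were called, and the ARSD call is not read as a result. It depends on 1 library, the same one in which the sums of the epithelial and the other listed markers were highest, though not every single marker was. The part of this in the ARSD value was not tested.

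The modifying factors act on all sulfatases. SUMF1 lies at chr3:3700814-4467281 and was 41.8, 78.3 and 34.3 in OVCAR5 and 45.5, 54.2 and 51.2 in OVCAR5R. OVCAR5 replicate 2 was 2.06 times the mean of the other 2 OVCAR5 cultures, and all 3 OVCAR5R cultures lay below it and above the other 2. The log2 difference was 0.05 (95% interval -0.66 to 0.77, adjusted p = 0.969), and without OVCAR5 replicate 2 it was 0.40 (95% interval -0.09 to 0.88, adjusted p = 0.551).

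SUMF2 lies at chr7:56064002-56080670 and was 228, 257 and 216 in OVCAR5 and 273, 283 and 215 in OVCAR5R. The lowest library of each line was nearly the same. Between the lines the log2 difference was 0.13 (95% interval -0.33 to 0.59, adjusted p = 0.856), and it was 0.20 without OVCAR5 replicate 2.

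**Figure D2:**
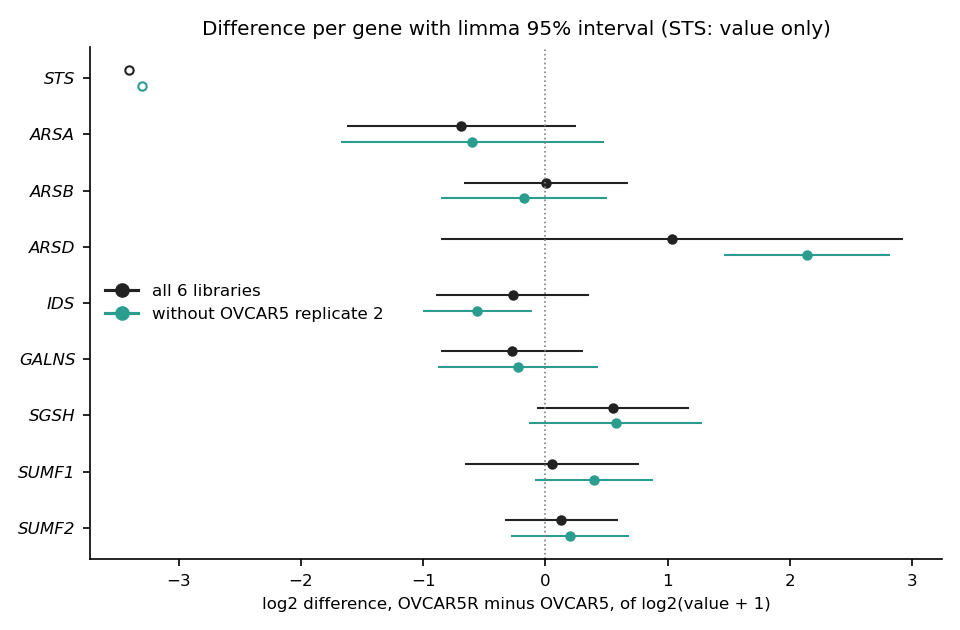
The log2 difference of OVCAR5R minus OVCAR5 for each gene, in black with all 6 libraries and in green without OVCAR5 replicate 2, where points are estimates and lines are 95% intervals from limma (none for STS, which was selected on this comparison). ARSD moves from 1.03 to 2.14 when that library is left out, and STS lies at -3.41 and -3.30.

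Some of these genes have near copies that could share reads with them. GENCODE release 29 lists the pseudogenes STSP1 and ARSDP1 on the Y chromosome and IDSP1 close to IDS on the X chromosome, and none of them is a row of the table. How reads that match both a gene and its copy were assigned is not given in the sources used here, so the levels of STS, ARSD and IDS are uncertain to that extent.

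The lines also differed in the share of STS within the family. STS made up 49.4%, 53.3% and 38.9% of the summed values of the 7 sulfatases in OVCAR5 and 12.1%, 4.59% and 8.74% in OVCAR5R. Together the 7 sulfatases summed to 492 ± 79.0 in the OVCAR5 libraries and to 261 ± 4.48 in those of OVCAR5R (SD over n = 3 libraries). Per kilobase of exons, the share of STS was 38.6% ± 5.93 in OVCAR5 and 6.06% ± 2.91 in OVCAR5R. The 6 without STS summed to 257 ± 27.9 and 239 ± 10.2, a difference within the spread of the OVCAR5 cultures. These sums contain the gene selected for its change and are a description.

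The order of the genes was read from the value per kilobase of exons in GENCODE. In OVCAR5 the order was SUMF2 at 97.7, STS at 36.0, SUMF1 at 23.8, GALNS at 21.2, IDS at 12.3, SGSH at 10.8, ARSA at 7.70, ARSB at 2.72 and ARSD at 1.27. Libraries did not overlap between SUMF2 and STS, between GALNS and IDS, and between ARSA and ARSB, and the other neighbours in the order did overlap. In OVCAR5R the order was SUMF2 at 107, SUMF1 at 23.3, GALNS at 17.9, SGSH at 16.1, IDS at 9.80, ARSA at 5.18, STS at 3.39, ARSB at 2.78 and ARSD at 1.44. STS thus stood in place 2 in OVCAR5 and in place 7 in OVCAR5R, where it overlapped both ARSA above it and ARSB below it.

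The genes around STS were read to see whether the short arm of the X chromosome moved with it. Of the tested genes whose start lies within 5 Mb of the STS start, 14 in all with ARSD among them, 8 were higher and 6 lower in OVCAR5R by the log2 difference. None was called (0 of 14, with 0.119% of all genes called). Their median was 0.03, and that of the other 339 tested genes of the chromosome was 0.09. Per library, the median of the 14 genes in the OVCAR5R libraries stood 0.16, 0.14 and 0.12 above the OVCAR5 mean, where STS itself stood at -2.79, -4.13 and -3.29.

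The nearest of them was PUDP, which encodes a pseudouridine phosphatase and starts 0.07 Mb from the GENCODE start of STS. PUDP spans chrX:7048920-7148190 on the minus strand, so the first STS window shown above, chrX:7147462-7147711, lies inside it. The RefSeq start of STS after that window, at 7147712, is thus much closer to the PUDP start at 7148190. PUDP was 26.1, 28.5 and 33.4 in OVCAR5 and 23.0, 17.2 and 16.0 in OVCAR5R, without overlap, a log2 difference of -0.63 (adjusted p = 0.401). On the other side, PNPLA4, a lipase family gene 0.71 Mb away, had a log2 difference of 0.14 (adjusted p = 0.904), and ANOS1, the gene of anosmin and 1.51 Mb away, had -0.46 (adjusted p = 0.767). PRKX at 0.36, HCCS at 0.48 and MSL3 at 0.30 were higher without overlap (adjusted p = 0.593, 0.464 and 0.661), and TBL1X at 0.02, CLCN4 at 0.03 and MID1 at -0.07 overlapped. Without OVCAR5 replicate 2, PNPLA4 was at 0.43, TBL1X at -0.26, CLCN4 at -0.10 and MID1 at -0.34, and the median of the 14 genes was -0.00. Many genes of this arm are known to escape X inactivation, as STS does. Of 42 genes listed as Xp22 neighbours or as escaping X inactivation, 29 were tested and 0 called (0.119% of all genes were), with a median of 0.07. In that list 5 were higher and 1 lower without overlap (8.4% and 8.18% of all genes). The extremes of that list were TMSB4X at -0.70 and PUDP below, and HCCS and TXLNG at 0.40 above. Without OVCAR5 replicate 2, TMSB4X was at -0.44 and TXLNG at 0.23.

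**Figure D3:**
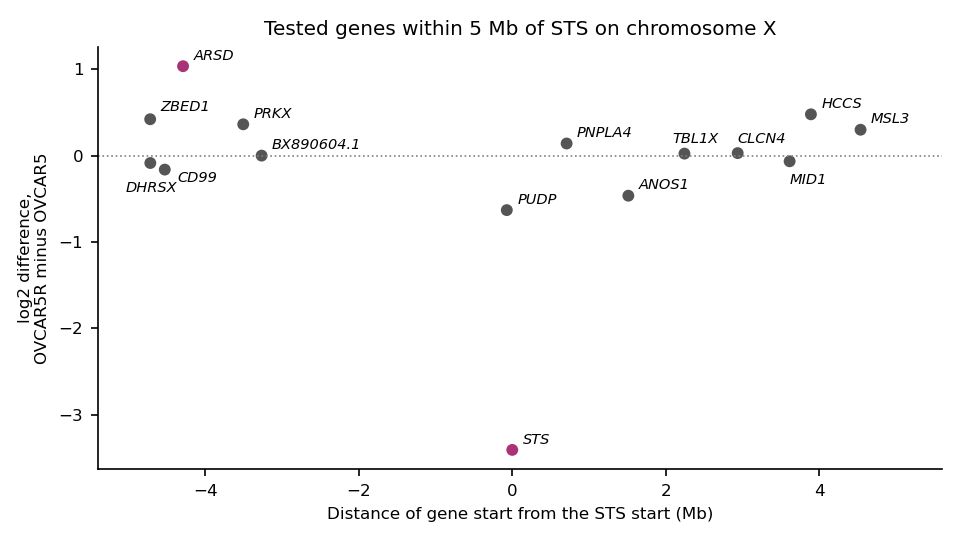
The log2 difference of OVCAR5R minus OVCAR5 (vertical axis) for STS and the 14 tested genes within 5 Mb of it, against the distance of each gene's start from the STS start in Mb. STS lies at -3.41 and the neighbours lie between -0.63 for PUDP and 1.03 for ARSD.

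The same window was taken around each of the other members. Of all genes tested, 8.18% were lower without overlap. The neighbours of GALNS near the end of chromosome 16 had a median log2 difference of -0.65 (59 genes, 56 of them lower, 20 lower without overlap), against -0.27 for the rest of that chromosome. The neighbours of ARSA had -0.44 (39 genes, 35 lower, 10 lower without overlap), close to the -0.45 of the rest of chromosome 22. Those of ARSB had -0.26 (35 genes, 31 lower, 3 lower without overlap), against -0.13 for the rest of chromosome 5. Medians for the neighbours of ARSD, IDS, SGSH, SUMF1 and SUMF2 lay between 0.02 and 0.09.

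The OVCAR5R cultures differed from each other in these regions, and some members differed with them. Relative to the OVCAR5 mean, ARSA stood at -1.49, -0.76 and 0.19 in the OVCAR5R libraries, and the median of its neighbours at -0.96, -0.68 and -0.12. GALNS stood at -0.02, -0.02 and -0.79, and its neighbours at -0.43, -0.44 and -1.07. ARSB stood at 0.40, 0.09 and -0.47, and its neighbours at 0.10, -0.21 and -0.60. For these 3 genes and IDS, 4 of 9 members, the OVCAR5R libraries fell in the same order by the gene and by its neighbours. IDS stood at -0.325, -0.239 and -0.242, so its order rests on a near tie. The order of GALNS does too, at -0.015 and -0.024 in OVCAR5R replicates 1 and 2. The share of all genes with such a match was not counted. SGSH went another way, at 0.14, 0.62 and 0.91 with neighbours at -0.02, 0.13 and 0.03. The genes and their neighbours were measured in the same 3 libraries, the pattern was noticed after the values were seen, and the part of the neighbours in a member's value was not tested.

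**Figure D4:**
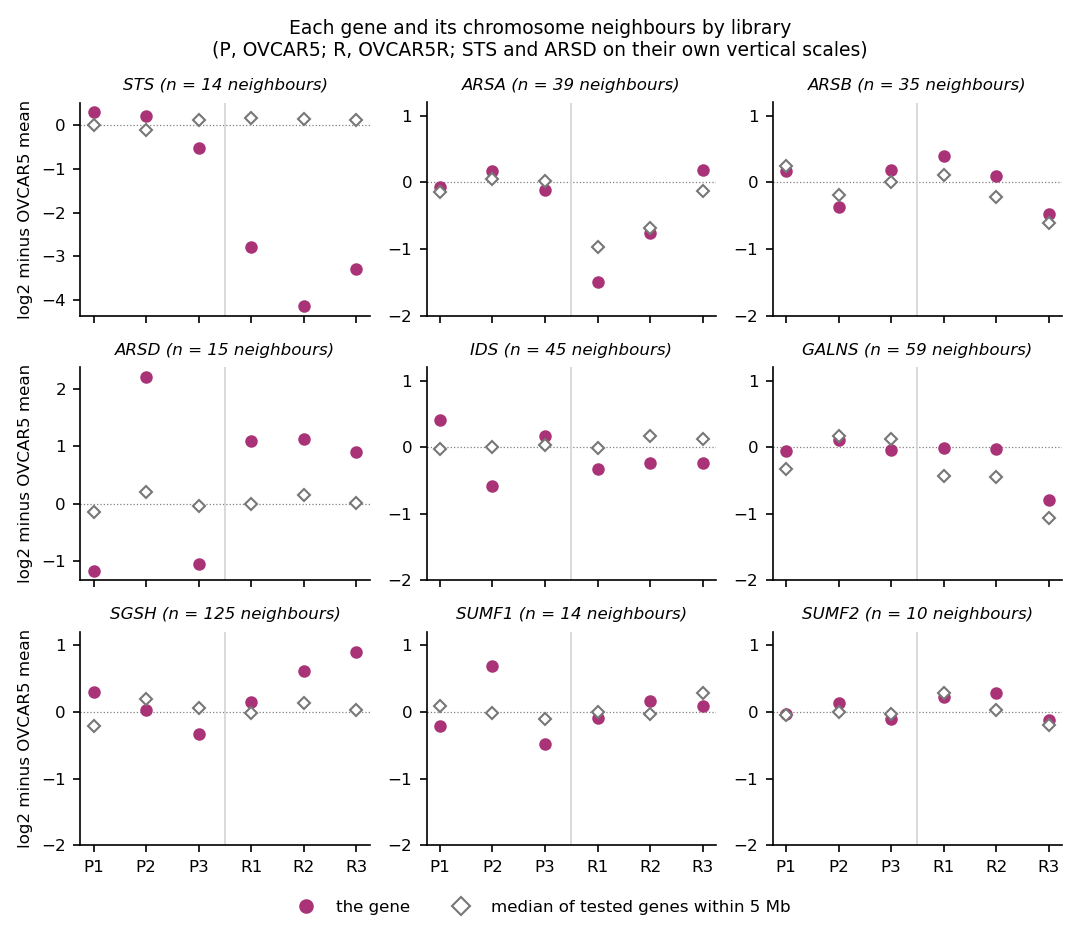
For each of the 9 genes, its log2(value + 1) minus its OVCAR5 mean (filled circles) and the median of the same quantity over the tested genes within 5 Mb (open diamonds), in OVCAR5 libraries 1 to 3 (P1 to P3) and OVCAR5R libraries 1 to 3 (R1 to R3). In R3 both GALNS at -0.79 and its neighbours at -1.07 are at their lowest, while STS lies at -2.79 to -4.13 in OVCAR5R with neighbours at 0.12 to 0.16.

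Genes that act before, after or beside the sulfatases were read from 9 lists. Of 204 listed genes 145 were in the table and 137 were tested. None was called by limma (0 of 137, with 0.119% of all genes called), 21 had an unadjusted p under 0.05 (10.4% of all genes did), and the libraries did not overlap for 13 higher and 15 lower genes (8.4% and 8.18% of all genes). None of these counts is read as a result about the lists. The lowest adjusted p was 0.184, for PAPSS1, which makes the active sulfate donor PAPS that sulfotransferases use. The medians of the lists are descriptive, since the list members share pathways and libraries.

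In the steroid lists, the conversion enzymes had 14 tested genes with a median log2 difference of -0.59, 3 above and 11 below 0. Lower without overlap were 5 of the 14 (8.18% of all genes were). Leaving out OVCAR5 replicate 2 brought the median to -0.32. The lowest were AKR1C2 at -2.84 and AKR1C1 at -1.79, aldo-keto reductases that act on progesterone and androgens, with adjusted p-values of 0.244 and 0.315. AKR1C2 was 10.2, 11.8 and 71.1 in OVCAR5 and 2.84, 2.14 and 1.36 in OVCAR5R, so OVCAR5 replicate 3 was several times the other 2 cultures. Reads of AKR1C1, AKR1C2 and AKR1C3 are hard to tell apart, since these genes are near copies of each other. All of them are among the 5 lower without overlap, so these are not 5 separate observations. A few further genes were named after their values were seen. AKR1C3, which makes testosterone from androstenedione, had -1.64, HSD17B11, a hydroxysteroid dehydrogenase, had -1.15, and SRD5A1, a steroid reductase that makes dihydrotestosterone, had -0.81, each lower without overlap (adjusted p = 0.237, 0.293 and 0.298). SRD5A3 at 0.32 and STARD3 at 0.18 were the highest of the list, at 0.53 and 0.29 without OVCAR5 replicate 2.

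Among carriers that bring steroid sulfates into cells or export them, 6 genes were tested with a median of -0.61, 1 above and 5 below 0. SLCO4A1, an organic anion uptake carrier, was 234, 194 and 290 in OVCAR5 and 74.1, 127 and 147 in OVCAR5R, a log2 difference of -1.07 without overlap (adjusted p = 0.298). The exporters ABCG2 at -1.13 and ABCC4 at 0.77 rested on OVCAR5 replicate 2, and without it they were at -0.40 and -0.01. SLCO1B3 was at -0.28, and at -0.54 without it. Of 11 steroid receptors 6 were tested with a median of 0.03, or 0.13 without that library. PGRMC2, a membrane progesterone receptor component, was lower without overlap at -0.86 (adjusted p = 0.298), ESRRA was at -0.04, the glucocorticoid receptor NR3C1 at 0.24 and GPER1 at 0.38. NR3C1 was 157, 43.0 and 98.5 in OVCAR5, and without OVCAR5 replicate 2 NR3C1 turned to -0.27 and ESRRA to 0.18, while GPER1 was at 0.22. The estrogen receptors ESR1 and ESR2 and the aromatase CYP19A1 were not listed.

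The enzymes that oppose STS attach sulfate. Of 20 genes for sulfate activation and transfer 11 were tested with a median of -0.17, 4 above and 7 below 0. PAPSS1 was 51.4, 61.2 and 42.9 in OVCAR5 and 26.1, 23.0 and 25.5 in OVCAR5R, without overlap, a log2 difference of -1.02 (95% interval -1.50 to -0.53, adjusted p = 0.184). SULT1A4, whose reads cannot be told from those of its copy SULT1A3, was at -0.71, the sulfate carrier SLC26A2 at 0.35 and the tyrosine sulfotransferase TPST1 at 0.52, and all 3 overlapped. Without OVCAR5 replicate 2, SLC26A2 turned to -0.20, SULT1A4 was at -0.33 and TPST1 at 0.33. The steroid sulfotransferases SULT1E1 and SULT2A1 were not listed.

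Of 10 sulfatases outside the 9 members 6 were tested, 3 above and 3 below 0 with a median of -0.18, or -0.34 without OVCAR5 replicate 2. SULF2, which trims sulfate from heparan sulfate at the cell surface, was 124, 89.4 and 143 in OVCAR5 and 19.7, 60.0 and 63.9 in OVCAR5R, a log2 difference of -1.44 (adjusted p = 0.323). ARSJ, arylsulfatase J, was 55.1, 30.0 and 51.9 in OVCAR5 and 14.7, 19.0 and 25.1 in OVCAR5R, a difference of -1.16 (adjusted p = 0.295). Both were lower in every OVCAR5R library than in every OVCAR5 library and neither passed the test. ARSI was at 0.16 with overlap, and at 0.34 without OVCAR5 replicate 2.

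In the lysosome, 20 genes that break down sugar chains and sulfatide had a median of -0.01, 9 above and 11 below 0. Of the 20 genes, 2 were higher and 2 lower without overlap (8.4% and 8.18% of all genes). Without OVCAR5 replicate 2 that median was 0.18. HYAL1, a hyaluronidase, had the lowest log2 difference at -2.23, which rested on a value of 149 in OVCAR5 replicate 2 against 12.7 and 7.30 in the other OVCAR5 cultures, and was -0.96 without that library. HGSNAT, which acetylates heparan sulfate fragments, was at -1.27 without overlap (adjusted p = 0.306). SMPD1, acid sphingomyelinase, was higher without overlap at 0.77 (adjusted p = 0.306), and GALC, which acts on the lipid left after ARSA has removed the sulfate, was at 0.55. The 19 genes of enzyme targeting and of the lysosome itself had a median of -0.11, which turned to 0.01 without OVCAR5 replicate 2. Of the 19 genes, 3 were higher and 2 lower without overlap (8.4% and 8.18% of all genes). Among them the protease CTSD was at -1.34 and CTSL at -0.53, both without overlap (adjusted p = 0.243 and 0.429), and GNPTAB, which starts the mannose phosphate tag of lysosomal enzymes, was higher without overlap at 0.40 (adjusted p = 0.558). LAMP2 was at 0.37 with overlap, and at 0.13 without OVCAR5 replicate 2. The 27 tested genes that build heparan and chondroitin sulfate, substrates of the lysosomal members, had a median of 0.10. Of the 27 genes, 3 were higher and 0 lower without overlap (8.4% and 8.18% of all genes). The extremes of this list were HS3ST1 at -1.24 and CHST15 at -0.98 below, and EXT1 at 0.90 and DSE at 0.68 above, all with overlap. EXT1 and DSE were lowest in OVCAR5 replicate 2 among all 6 libraries, and without it they were at 0.47 and 0.33.

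**Figure D5:**
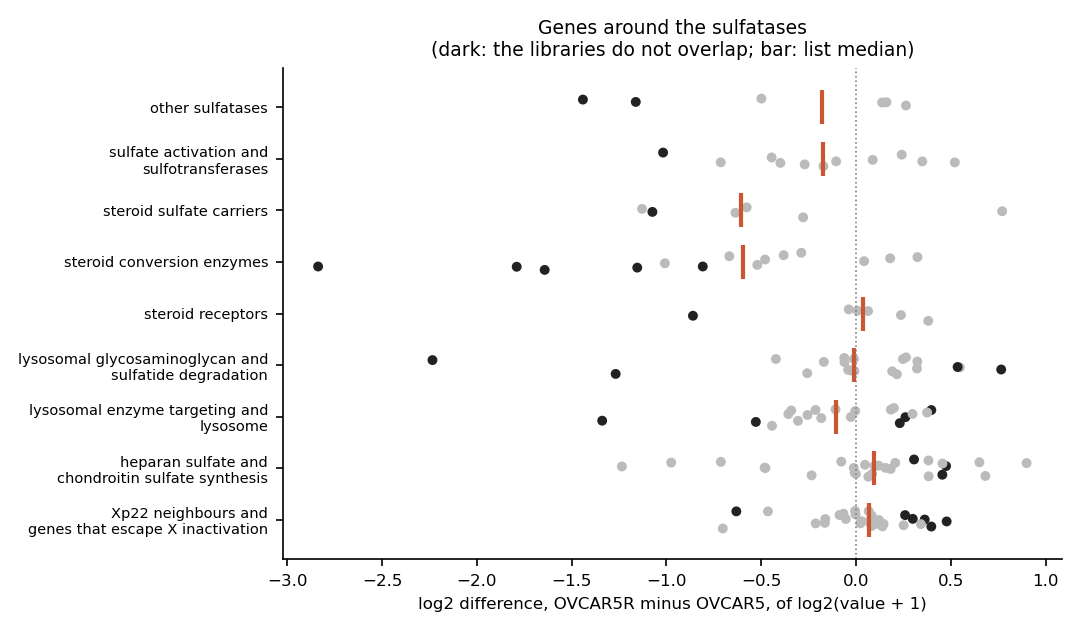
The log2 difference of OVCAR5R minus OVCAR5 for each tested gene of the 9 lists (1 point per gene, dark where the libraries of the 2 lines do not overlap) with the list median as a bar. The medians lie between -0.61 for steroid sulfate carriers and 0.10 for heparan and chondroitin sulfate synthesis, and the lowest single gene is AKR1C2 at -2.84.

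The genes whose pattern over the 6 libraries was most like that of STS were found by the root mean square difference of log2(value + 1) after each gene was centred on its own mean. They were NR2F1 at 0.37, SPRY1 at 0.48, DUSP4 at 0.57, AKR1B10 at 0.58 and AC022034.2 at 0.62, where the median of 11765 genes was 1.79 and 42 genes were within 1. NR2F1, a nuclear receptor of the COUP family, was 10.2, 14.5 and 4.99 in OVCAR5 and 0.697, 0.0724 and 0.242 in OVCAR5R, with OVCAR5R replicate 2 lowest, as for STS. These OVCAR5R values of NR2F1 are all under 1, near the floor, so their order is uncertain. The means of NR2F1 differed 29.3-fold, against 10.6-fold for STS. On the log2(value + 1) scale, which understates folds of low genes, its difference was -2.95. Its closeness to STS thus depends on that scale. SPRY1, an inhibitor of receptor tyrosine kinase signaling, was 48.8, 48.7 and 26.8 in OVCAR5 and 5.16, 4.85 and 4.47 in OVCAR5R. Like STS, it was lowest among the OVCAR5 cultures in replicate 3. DUSP4, a phosphatase of MAP kinases, went from a mean of 104 to 18.3, AKR1B10, an aldo-keto reductase, from 24.5 to 1.76, and AC022034.2, for which no role is stated here, from 18.6 to 2.52. These genes were chosen for following STS, so their differences carry no test, and none of them lies on the X chromosome.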

How the data were processed

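RNA-seq values of 3 OVCAR5 and 3 OVCAR5R cultures were taken from the table that the authors deposited. It holds a normalized signal on a linear scale, and the supplementary methods state quartile normalization. Its low values are multiples of a step (64.2% to 67.6% whole within 0.01), so it holds scaled estimated reads, not counts. The labels give hg38, while the aligner, counter and annotation are not given in the sources used here. Of 12309 rows, 1 exact copy was dropped.

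The deposited signal was analyzed as log2(value + 1), which understates folds of low genes, for genes with at least 1 in at least 3 libraries, with limma (version 3.58.1, R 4.3.3; eBayes with trend, two-sided, Benjamini-Hochberg adjustment over 11766 genes, called under 0.05), with the script checked on simulated data. The OVCAR5R libraries were deeper than those of OVCAR5, and the number of cultures limits the precision. Positions and lengths came from GENCODE release 29, in which 12233 of 12305 symbols matched, and promoter windows from RefSeq.

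Members and lists were chosen with earlier results of these data known. Named were all members, the 2 highest and 2 lowest tested genes of each list and any called, Xp22 genes of the list within 5 Mb of STS, and the 5 genes most like STS. A gene that this rule picks is left unreported. Alternatives were a pseudocount of 0.1, quantile normalization, a stricter and no filter on low values, limma without the trend, a replicate block, leaving out each library, and a fold of at least 2. Python 3.11.15 and matplotlib 3.10.9 drew the figures.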

Additional observations from a re-analysis of the deposited data

How the results depend on the processing

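Over 12 alternatives the log2 difference of STS ran from -3.71 to -3.04, and 0 genes of the surrounding lists were called under any of the 12. The median of the genes within 5 Mb of STS ran from -0.00 to 0.11. The number of genes called, 14 over all libraries, ran from 0 to 29 when each library was left out, with 29 without OVCAR5 replicate 2, which included all 14, and 0 without OVCAR5R replicate 3 (limma, 864 genes at an unadjusted p under 0.05). It was 3 without OVCAR5 replicate 1, 4 without OVCAR5R replicate 1 and 2 without OVCAR5R replicate 2. With the replicate number as a block it was 5, and the block changed no call among the other 8 members (0 called). Same-numbered cultures had correlations of their deviations of -0.00, 0.18 and -0.12, not each culture correlated best with its own number, and the numbers were not taken as pairs. The count of called members other than STS ran from 0 to 1 when libraries were left out, the 1 being ARSD without OVCAR5 replicate 2. In that setting ARSD had values of at least 1 in OVCAR5R only, so the call is not read as a result. ARSD ranged from 0.45 to 2.14 over 11 alternatives, and it was not tested where a value of at least 1 was required in all 6 libraries, because 2 OVCAR5 libraries were below 1. ARSB and SUMF1, near 0, kept their sign in 9 of 12 alternatives each. ARSA, IDS, GALNS, SGSH and SUMF2 kept theirs in all 12, and ARSD in its 11. With 3 cultures per line, 1 of them standing apart, moderate changes of the 8 members could be missed.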
